A study of Bos taurus with 61 samples.

Results

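RNA-Seq of the endometrium, the inner lining of the uterus, was compared between heifers before puberty (PRE) and after it (POST). The values were the authors' mean RPKM of each gene in each stage, that is reads scaled by exon length and by the size of the library. A gene was compared when its mean RPKM reached 0.2 in at least 1 stage, the level the study used to call a gene expressed. Of the 24616 genes in the files, 15620 were compared. The difference of a gene was log2 of the POST mean minus log2 of the PRE mean, with 0.2 added to each mean, so that a positive difference is a higher POST level. Genes with a difference of 2 or more in size, which is 4-fold, were counted as higher or lower, by size alone and without a test. The samples were 3 PRE and 3 POST endometria out of 61 libraries of 8 tissues from 8 heifers of the Brangus breed, a composite of 3/8 Brahman and 5/8 Angus, each heifer giving 1 endometrium library at most. The PRE heifers had low serum progesterone and no corpus luteum, and were harvested once the first heifer of the cohort had reached puberty. The POST heifers had repeated progesterone values above the puberty limit and were harvested later and older, in the mid-luteal phase of the cycle, when the corpus luteum secretes progesterone. Stage, age, harvest time and luteal phase therefore cannot be told apart. POST tissue came from the horn on the side of the corpus luteum and PRE tissue from the side of the larger ovary. Uterus, meaning uterine horn, had 4 libraries per stage, 3 from these heifers and 1 from a heifer with no endometrium library, and served as the nearest tissue. Only means were used here, so no value carries an error and no replicate check was run. Summed over genes, the mean unique reads were 17109554 in PRE and 20608929 in POST endometrium.

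The endometrium is made of a luminal epithelium, coiled glands that open into the lumen, and a fibroblast stroma with vessels and immune cells, and it lies on the smooth muscle of the myometrium. Progesterone of the luteal phase is known to slow proliferation of the gland epithelium and to turn it to secretion of proteins, lipids and ions into the lumen, on which a ruminant embryo lives before it implants. Oestrogen, acting through its receptor ESR1, is known to drive growth of the lining and to raise the progesterone receptor PGR and the oxytocin receptor OXTR.

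In POST endometrium, single secreted or membrane-anchored proteins, transporters and claudins such as TDGF1, SLC13A5 and CLDN4 stood far above their PRE levels. Most smooth muscle genes and many cell cycle genes stood far below theirs. By the 4-fold rule 505 genes (3.23% of those compared) were higher in POST endometrium and 517 (3.31%) were lower. On mean unique reads scaled to the total of the group, in place of RPKM, 420 of the 505 and 413 of the 517 were also 4-fold apart in the same direction. Most of the higher genes were well expressed, with 389 of the 505 at an RPKM of at least 5 in POST endometrium and 82 at 100 or more. Of the lower genes, 287 reached an RPKM of 5 in PRE endometrium and 25 reached 100. Of the higher genes, 342 of the 505 (67.7%) had their highest mean of all 16 groups in POST endometrium, where the choice of these genes favours it. Over all genes compared, 22.9% had it in endometrium of either stage and 9.97% in uterus. Of the 517 lower genes, 65 (12.6%) had their highest mean in endometrium, 105 in uterus and 114 in PRE ovary. The rule cut a continuous range, since OVOL1, an epithelial transcription factor, lay just under it at 1.94 in PRE and 8.34 in POST, and ARHGEF19 just outside on the other side at 4.15 and 0.890. Just inside it were the entries named CG041 at 29.1 and 117 and SSPTB at 0.848 and 0.062.

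**Figure D1:**
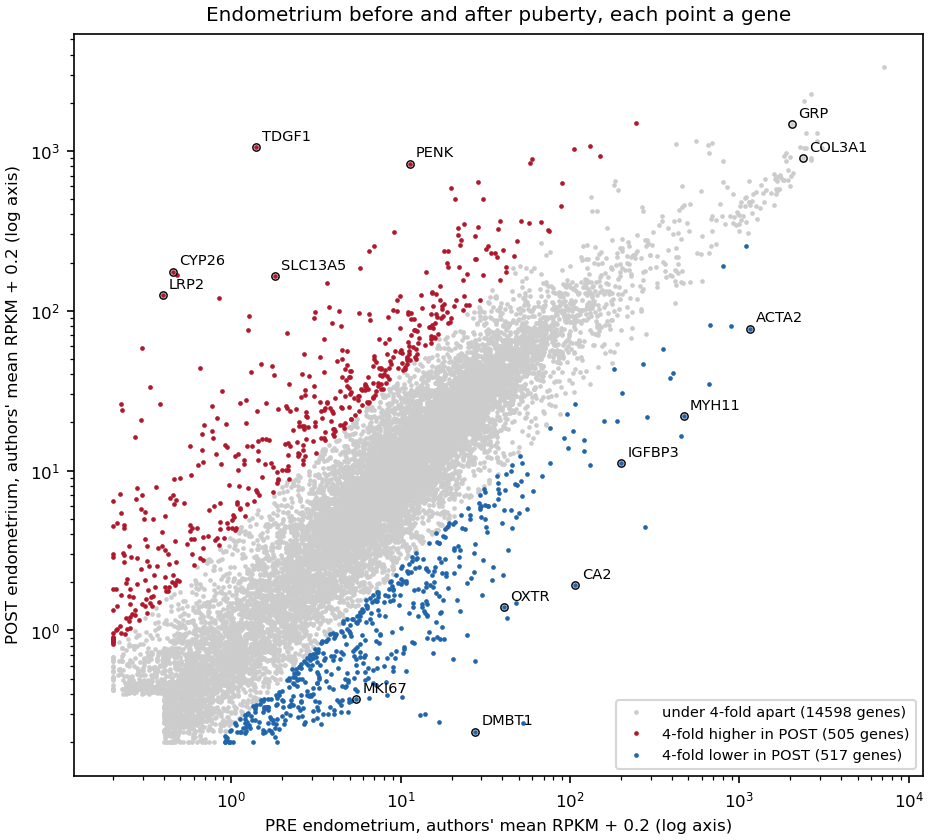
Authors' mean RPKM plus 0.2 of the 15620 genes compared, PRE endometrium on the horizontal and POST endometrium on the vertical axis, both logarithmic. Each point is a gene, red for the 505 at least 4-fold higher in POST, blue for the 517 at least 4-fold lower and grey for the others, with circles at genes named in the text; the smooth muscle genes ACTA2 and MYH11 lie among the most abundant of the lower genes.

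Among well-expressed genes with a name, the largest difference was that of TDGF1 (chromosome 22, 53432383 to 53437016 in UMD3.1), a membrane-anchored co-receptor for Nodal signals. Its mean was 1.20 RPKM in PRE and 1058 in POST endometrium, a difference of 9.56, and its mean unique reads were 42.3 and 41089. TDGF1 was thus a minor transcript in PRE and exceeded the collagen COL3A1 in POST endometrium, and it was 0.779 in PRE and 273 in POST uterus. CYP26 (chromosome 26, 14460222 to 14463796), as the study names a hydroxylase that breaks down retinoic acid, followed with 0.255 and 175, a difference of 8.59. LRP2 (chromosome 2, 26936763 to 27078521), the large endocytic receptor megalin of absorptive epithelia, had 0.194 in PRE and 125 in POST endometrium. Neighbouring genes of the LY6 family on chromosome 23 were both near absent in PRE, with LY6G6C at 0.278 and 168 and LY6G6E at 0.644 and 120. The opioid precursor PENK (chromosome 14, 25218586 to 25222991) had 11.1 in PRE and 832 in POST endometrium, close to its 6.97 and 770 in uterus.

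Transport, gap junction and host defence proteins were among the others of this kind. The citrate transporter SLC13A5 had a mean of 1.62 RPKM in PRE and 164 RPKM in POST endometrium. The fatty acid transport protein SLC27A6 had 0.453 and 43.8. The connexin GJB5 had 1.07 and 92.3, and the airway and mucosal protein BPIFB1 had 1.05 and 75.1. KSR2, a scaffold of the MAP kinase cascade, had 0.094 and 20.5, and the calmodulin kinase subunit CAMK2B had 0.178 and 26.0. RNASE9, of the ribonuclease A family, had 0.134 and 33.0. PRSS2, a trypsinogen, had 0.024 and 25.7 in endometrium, with mean unique reads of 0.333 and 176. Its difference was 6.85 by RPKM and 5.32 by scaled unique reads, and its uterus means were 4.63 and 5.01. This family has near-identical copies, and whether they share reads here was not tested. All 14 of these genes except CAMK2B, which was highest in POST hypothalamus, had their highest mean of the 16 groups in POST endometrium.

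The largest differences in the other direction lay in epithelial surface proteins and in genes of the stroma and muscle. DMBT1, a secreted mucosal glycoprotein, was the lowest of them with a difference of -6.89. The ammonia transporter RHCG had a mean of 16.7 RPKM in PRE and 0.067 RPKM in POST endometrium, and the membrane mucin MUC4 had 13.7 and 0.102. The carbonic anhydrase CA2 (chromosome 14, 79372712 to 79388600) had 108 and 1.73, beside 117 and 1.78 in uterus. The kinesin KIF12 had 27.3 and 0.441, and the potassium channel subunit KCNE3 had 24.3 and 0.740. These 6 genes were at least 4-fold lower in POST uterus too.

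For the other 8 the uterus differed less than 4-fold. RSPO3 (chromosome 9, 24365333 to 24508267), a secreted amplifier of Wnt signals, had a mean of 42.5 RPKM in PRE and 0.992 RPKM in POST endometrium but 84.0 and 76.6 in uterus. The oxytocin receptor OXTR (chromosome 22, 17817626 to 17827292) had 40.7 and 1.19 in endometrium but 18.2 and 18.5 in uterus. IGFBP3, which binds insulin-like growth factors, had 201 and 10.9 in endometrium and 138 and 98.2 in uterus. In each of these the POST endometrium stood apart from the other 3 groups. The same held for WFIKKN2, a secreted inhibitor of myostatin-like growth factors, at 9.94 and 0.186, for C1QTNF3 at 17.7 and 0.683, for the gene the study names FP at 12.9 and 0.095, and for the smooth muscle genes MYH11 and ACTG2.

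**Figure D2:**
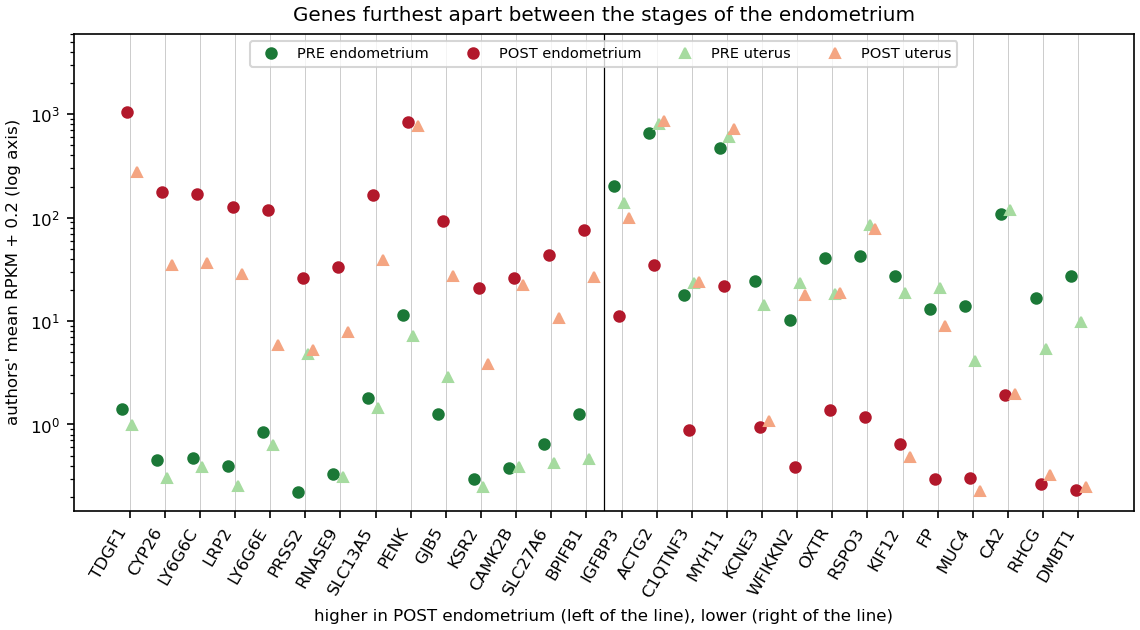
Authors' mean RPKM plus 0.2, on a logarithmic axis, of the 14 named genes with the largest positive (left) and the 14 with the largest negative difference (right) at an RPKM of at least 5 in the higher stage. Circles are endometrium and triangles uterus; on the left the POST uterus mostly lies between PRE and POST endometrium, and on the right the POST endometrium of IGFBP3, ACTG2, MYH11, OXTR and RSPO3 lies below all of the other 3 groups.

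Smooth muscle genes were abundant in PRE endometrium, close to their level in uterus, and were low in POST endometrium. Of the 34 genes in a list of contractile and myogenic genes, 24 were matched and compared. At least 4-fold lower in POST endometrium were 18, and none was 4-fold higher. Over all genes compared, 3.31% were 4-fold lower, 3.23% 4-fold higher, 13.5% at least 2-fold lower and 10.4% at least 2-fold higher. The same shares apply to the counts of the lists below. The median difference was -3.03 beside -0.03 over all genes compared. Alpha smooth muscle actin, ACTA2 (chromosome 26, 10662362 to 10714982), had a mean of 1155 RPKM in PRE and 77.1 RPKM in POST endometrium. In uterus it had 1483 and 1858. Smooth muscle myosin, MYH11 (chromosome 25, 14218281 to 14343745), had 469 and 21.6 in endometrium and 601 and 727 in uterus. The enteric actin ACTG2 had 663 and 34.5, the calponin CNN1 had 284 and 21.3, and the intermediate filament desmin, DES, had 408 and 40.6. MYOCD, the coactivator that drives smooth muscle genes, had 10.3 in PRE and 0.593 in POST endometrium, and the potassium channel subunit KCNMB1 had 34.6 and 1.88. So structural genes, their regulator and a channel subunit of the same cells were all on the lower side of the rule.

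Set against uterus, PRE endometrium held from 59.6% to 125% of the PRE uterus level of each of the 24 members, with a median of 76.9%. POST endometrium held a median of 5.86% of the POST uterus level, ranging from 1.92% to 85.9%. All 24 members lay within 2-fold of uterus in PRE endometrium, as did 96.6% of all genes compared, so this count is near the background. In POST endometrium 2 of 24 did, beside 77.1% of all genes compared. Summed over the list, the RPKM was 5944 in PRE endometrium and 625 in POST endometrium, which is 9.52-fold less, while it was 8142 in PRE and 11745 in POST uterus. Members that did not follow included SMOC2, a matricellular protein, at 47.9 and 39.5, and LDB3, a Z-disc protein of striated muscle, at 0.494 and 0.692. PRE endometrium thus resembled PRE uterus in these genes as it did in most others. Whether the muscle layer entered the PRE samples at dissection was not tested. In such bulk samples fewer cells of a type and less RNA per cell cannot be told apart.

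**Figure D3:**
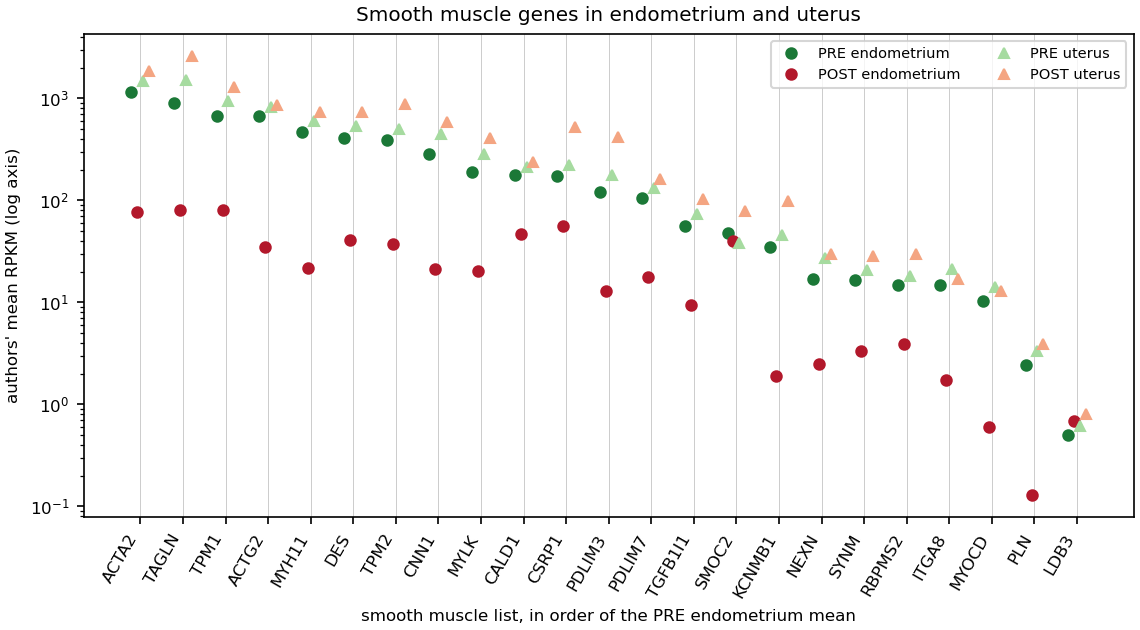
Authors' mean RPKM, on a logarithmic axis, of 23 of the smooth muscle genes compared, in order of their PRE endometrium mean. Circles are endometrium and triangles uterus; the PRE endometrium lies within 2-fold of PRE uterus for all of these genes, and the POST endometrium lies within 2-fold of POST uterus for 2.

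The other cell types were checked with marker lists in the same way. Epithelial markers were present in both stages and mostly higher in POST: of 27 compared, 5 were at least 4-fold higher, 2 were lower and the median difference was 1.04. The epithelial adhesion molecule EPCAM had a mean of 71.6 RPKM in PRE and 222 RPKM in POST endometrium. The list summed to 566 in PRE and 1462 in POST endometrium, 2.58-fold more, against 424 and 511 in uterus. The 5 higher members were the tight junction proteins CLDN3 (11.8 and 88.3), CLDN4 (6.34 and 95.2) and CLDN7 (32.4 and 252), the transcription factor SOX17 (24.1 and 108) and the protease inhibitor family member WFDC2 (30.6 and 168). The 2 lower members were another claudin, CLDN10, at 40.4 and 5.49, and the cadherin CDH3 at 15.6 and 2.16. CDH3 had 48.4 and 51.5 in uterus, and its highest mean of all groups was in POST uterus. Whether its signal came from epithelium was not tested. CLDN10 and the keratin KRT7, at 25.6 and 6.88, ran against the list, while KRT19 had 34.3 and 34.5.

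Stromal markers were lower on the whole, but less so than those of muscle. Of 16 compared none was 4-fold apart, 9 were at least 2-fold lower and the median was -1.15, where 13.5% of all genes compared were at least 2-fold lower and 10.4% at least 2-fold higher. The fibrillar collagen COL1A1 had a mean of 1002 RPKM in PRE and 317 RPKM in POST endometrium, and COL3A1 had 2372 and 898. The proteoglycans DCN, at 801 and 868, and LUM, at 153 and 168, did not share this. HAND2, a transcription factor of the progesterone-responsive stroma, had 28.7 and 17.7. Of 17 endothelial markers 1 was 4-fold lower, beside 3.31% of all genes compared. It was the lymphatic receptor LYVE1 at 6.50 and 1.09, and the median of the list was -0.43. All 15 markers of T and NK cells had lower POST means, with a median of -1.01. So had all 10 of macrophages and monocytes, with a median of -1.06, beside -0.03 over all genes compared. At least 2-fold lower were 8 of the 15 and 6 of the 10, and none of either was 4-fold apart. CD3E, a chain of the T cell receptor complex, had 9.03 and 3.52, and the complement chain C1QB of tissue macrophages had 31.2 and 13. B cell markers were near the limit of detection, with MS4A1 at 0.357 and 0.168. Of the 8 genes compared there, IGLL1, of the immunoglobulin light chain family, was lower at 39.7 and 4.50, and BLNK, an adaptor protein, was higher at 10.7 and 50.2. The mast cell and eosinophil list had 5 genes compared, all under the rule. Blood and liver proteins had a median of -0.09, with albumin, ALB, at 34.5 and 19.9.

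The same stage difference in uterus separated these genes further. Across 15804 genes compared in either tissue, the endometrium and uterus differences had a Pearson r of 0.52; this is a description across genes, and most heifers gave both tissues. In uterus 206 of 15389 genes (1.34%) were at least 4-fold higher and 247 (1.61%) lower. Of the 505 genes higher in POST endometrium, 136 (26.9%) were also at least 4-fold higher in POST uterus, 193 (38.2%) were within 2-fold there and none was 4-fold lower. Of the 517 lower genes, 135 (26.1%) were also at least 4-fold lower in uterus, 253 (48.9%) were within 2-fold and 5 were 4-fold higher. Over all genes compared, 87.8% were within 2-fold between the stages of uterus.

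The lower genes fell into 2 kinds by their level in POST uterus. In 320 of the 517 the POST uterus mean was at least 2-fold above that of POST endometrium. Their median difference was -2.56 in endometrium and -0.06 in uterus, and MYH11, OXTR and RSPO3 were among them. The remaining 197 had a median of -2.62 in endometrium and -2.49 in uterus, with 124 at least 4-fold lower in both tissues. CA2, DMBT1 and MKI67 belonged there. The split uses the POST endometrium mean, which the count of lower genes also uses, so the 320 describe these genes and are not evidence of their own. The smooth muscle sum differed by the same sign as these 320 genes, and its part in them was not tested.

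**Figure D4:**
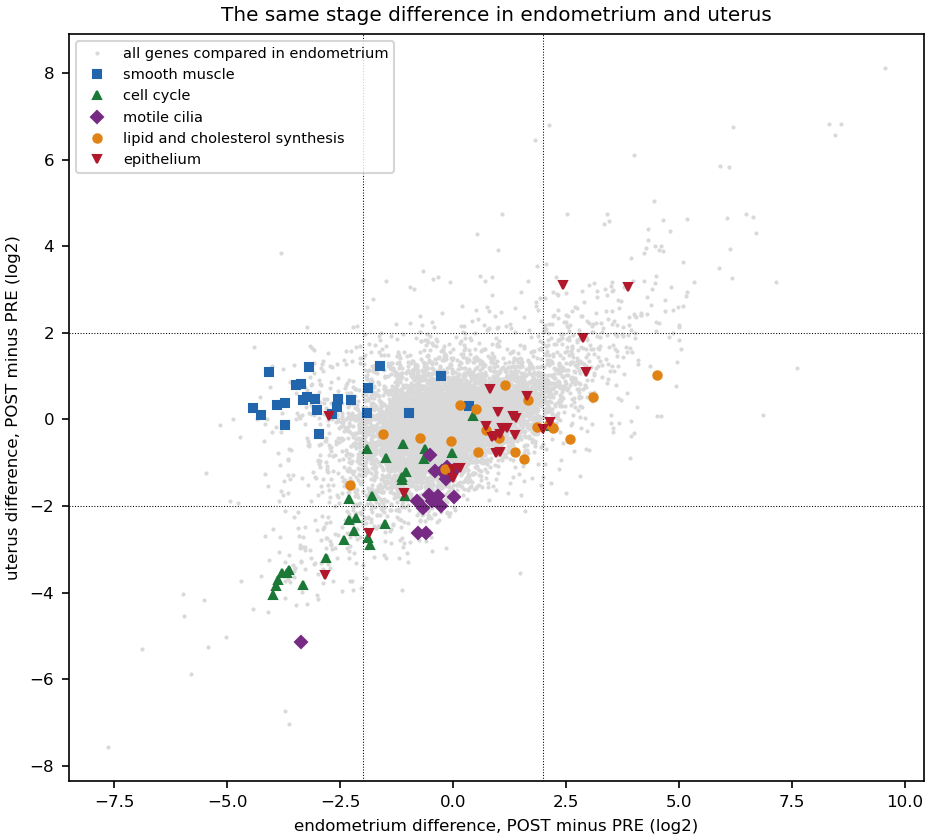
Difference between POST and PRE on the log2 scale in endometrium (horizontal) and in uterus (vertical), with each point a gene and dotted lines at the 4-fold rule. Cell cycle genes (green) lie along the diagonal, smooth muscle genes (blue) lie low in endometrium with uterus values near 0, motile cilia genes (purple) lie low in uterus with endometrium values near 0, and lipid synthesis genes (orange) spread to the right with most uterus values near 0.

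Named genes apart in opposite directions in the 2 tissues were SERPINA14, CCL21 and CPXM2. SERPINA14, the uterine serpin that glands secrete, had a mean of 34.9 RPKM in PRE and 2.30 RPKM in POST endometrium but 0.203 and 5.59 in uterus. Its PRE endometrium mean was the highest of the 16 groups. The chemokine CCL21, which guides cells into lymphatics, had 3.82 and 0.229 in endometrium and 8.90 and 39.7 in uterus. The carboxypeptidase family member CPXM2 had 2.0 and 0.307 in endometrium and 3.86 and 18 in uterus, but its endometrium difference was -1.27 by scaled unique reads.

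Genes on a list named for secretory proteins of the luteal uterus, not all of them secreted, went both ways. Of 43 compared, 9 were at least 4-fold higher and 5 lower in POST endometrium, and the median was -0.21. Besides TDGF1 and PENK the higher ones were DGAT2, which makes triacylglycerol, at 4.16 and 99.1, the antiprotease SLPI at 0.033 and 4.38, the metalloprotease MEP1B at 3.15 and 51.0, the natriuretic peptide NPPC at 2.33 and 20.05, the cystatin CST6 at 15.9 and 83.3, IGFBP1 at 2.47 and 11.5, and WFDC2 as above. Of these 9, 6 were also at least 4-fold higher in uterus. DGAT2, an enzyme, is counted on the lipid list as well. The lower ones were IGFBP3, SERPINA14, the chemokines CXCL12 (132 and 10.6) and CXCL14 (30.6 and 2.57), and the cytokine LIF (3.09 and 0.156), which is required for implantation in mice. Gastrin-releasing peptide, GRP, was the most abundant of the list in both stages, at 2036 and 1474, and no group of the 16 exceeded its PRE endometrium mean. CLU had 458 and 599. Neuromedin B, NMB, which had a uterus difference of 6.45, reached 9.08 in PRE and 32.5 in POST endometrium, a difference of 1.82. The parathyroid hormone-related peptide PTHLH had 7.42 and 3.41. The homeobox gene SIX6, known from the pituitary gland, was listed at 0 in PRE and at 0.046 in POST endometrium, under the level compared here.

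Among steroid receptors ESR2 was on the higher side of the rule, while ESR1 and PGR had lower POST means that stayed within it. Of 14 receptor and cofactor genes compared, 2 were 4-fold higher and 1 lower, with a median of -0.74. The oestrogen receptor ESR1 had a mean of 108 RPKM in PRE and 62.2 RPKM in POST endometrium, and the progesterone receptor PGR had 26.8 and 10.9, close to 32.6 and 9.66 in uterus. ESR2, the second oestrogen receptor, had 4.48 and 29.1, and FKBP5, a chaperone that progesterone and glucocorticoids induce, had 11 and 56.0. The membrane progesterone-binding protein PGRMC1 had 61.4 and 184, while FKBP4 had 129 and 113. The lower member was the oxytocin receptor OXTR, which is not a steroid receptor and was counted on the oestrogen-responsive list too. Of 14 genes on a list of oestrogen-responsive genes, OXTR, MYC (29.5 and 4.93) and the trefoil peptide TFF3 (17.7 and 3.70) were 4-fold lower, the scaffold PDZK1 (5.58 and 186) was 4-fold higher, and the median was -0.91. The size for PDZK1 depends on the unit, since its difference was 5.01 by RPKM and 2.80 by scaled unique reads, which were 1694 and 14246. GREB1, an early target of ESR1, had 8.88 and 2.48, FOS had 18.5 and 5.29, and XBP1 had 92.5 and 91.0. SLC7A2, an arginine transporter, had 2.78 and 0.651.

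Cell cycle genes were lower in endometrium and uterus alike. Of 29 compared, 13 were at least 4-fold lower in POST endometrium, 24 at least 2-fold lower and 1 was 4-fold higher. Over all genes compared these shares were 3.31%, 13.5% and 3.23%. The median of the list was -1.88 in endometrium and -2.28 in uterus. With 1 added to RPKM in place of 0.2 the endometrium median was -1.19. The mitotic activator CDC20 had a mean of 7.0 RPKM in PRE and 0.254 RPKM in POST endometrium. UBE2C, which marks cyclins for destruction, had 14.6 and 0.771, the checkpoint kinase BUB1B had 4.74 and 0.159, and the nucleotide reductase subunit RRM2 had 6.26 and 0.301. MKI67, the usual marker of cycling cells, had a difference of -3.89. The licensing factor MCM7, among the most abundant members, was less apart at 38.1 and 24.5, and the replication clamp PCNA had 23.8 and 15.1. Cyclin B1, CCNB1 (chromosome 20, 10431453 to 10441126), went against the list, with 41.9 in PRE and 188 in POST endometrium and 50.3 and 45.5 in uterus. Its partner CDK1 had 8.87 and 2.33.

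Motile cilia genes differed between the stages of uterus more than of endometrium. Of 17 compared, 16 were within 2-fold in endometrium and the median was -0.39. Over all genes compared, 10.4% were at least 2-fold higher there and 13.5% at least 2-fold lower. The 1 member 4-fold lower was CCNO, which starts the making of many cilia, at 2.49 and 0.059. In uterus 16 were at least 2-fold lower and the median was -1.78, where 87.8% of all genes compared were within 2-fold. FOXJ1, the main regulator of motile cilia, had 28.4 and 18.7 in endometrium but 27.8 and 4.33 in uterus. TPPP3, CAPS and TEKT2 had 72.1 and 72.8, 48.3 and 39.8, and 4.83 and 2.67 in endometrium.

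Some lipid and cholesterol genes were higher in POST endometrium. Of 20 compared, 5 were at least 4-fold higher, 11 at least 2-fold higher and 1 was 4-fold lower. Over all genes compared these shares were 3.23%, 10.4% and 3.31%. The median was 1.08 beside -0.29 in uterus, where 17 were within 2-fold, near the 87.8% of all genes. After DGAT2 came the lipid droplet coat PLIN2, with a mean of 15.1 RPKM in PRE and 132 RPKM in POST endometrium and 11.9 and 17.1 in uterus. The sterol demethylase CYP51A1 had 12.2 and 57.7, and INSIG1, a sterol sensor of the endoplasmic reticulum, had 4.19 and 19. IDI1 of the same pathway had 18.7 and 68.4, and SREBF2, its transcription factor, had 26.7 and 54.3. The lower member was the steroid dehydrogenase HSD3B1 at 1.37 and 0.121, and the cholesterol carrier STAR had 5.62 and 1.79. The epithelial marker sum, 2.58-fold higher in POST endometrium, moved in the same direction as the lipid median, and its part in the lipid genes was not tested. That sum contains CLDN3, CLDN4, CLDN7 and CLDN10, so it is no separate comparison for the claudins.

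Transporters went both ways. Of 16 compared, SLC13A5, SLC27A6, the phosphate transporter SLC34A2 (22.1 and 256) and the amino acid transporter SLC38A7 (4.83 and 30.1) were 4-fold higher. The lactate transporter SLC16A1 (14 and 1.68) and the glutamine transporter SLC1A5 (9.21 and 2.01) were 4-fold lower. The median was 0.16, or -0.06 by scaled unique reads, and the abundant members SLC38A2, at 38.6 and 37.9, and the glucose transporter SLC2A1, at 22.2 and 25.2, differed little. The list summed to 130 in PRE and 574 in POST endometrium, 4.41-fold more, and to 140 and 191 in uterus. Most of the rise in endometrium lay in SLC34A2 and in SLC13A5, the latter at 1.62 and 164. Outside the list, the study's SLC11A2 (chromosome 5, 29012107 to 29034478), a transporter of divalent metals, had 245 and 1485 and was among the 5 most abundant genes of POST endometrium.

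Junction and mucosal proteins held members at both extremes, with 5 of 22 compared higher, 4 lower and a median of 0.29. The higher members were CLDN3, CLDN4 and CLDN7, the connexin GJB1 (0.533 and 3.71) and the secretoglobin SCGB1D2, listed at 0 in PRE and at 0.698 in POST. The lower members were DMBT1, MUC4, CLDN10 and TFF3. The mucin MUC1, abundant on uterine epithelium, had 32.6 and 62.8, CLDN1 had 67.3 and 123, and the gap junction protein GJA1 had 106 and 30.7.

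Some matrix genes were lower in POST endometrium. Of 28 compared, 5 were at least 4-fold lower, 18 at least 2-fold lower and none was 4-fold higher. Over all genes compared these shares were 3.31%, 13.5% and 3.23%. The median was -1.31 beside 0.20 in uterus. The 5 were tenascin, TNC (39.9 and 2.04), COL14A1 (26.8 and 2.86), asporin, ASPN (27.2 and 3.28), and the thrombospondins THBS1 (47.0 and 8.04) and THBS2 (2.95 and 0.478). COL1A2, which is on the stromal list too, had 1155 and 455, so the matrix and stromal lists are not separate. The list summed to 7205 in PRE and 3483 in POST endometrium and to 5546 and 7697 in uterus. Of 15 proteases and inhibitors, the matrix metalloprotease MMP7 (17.6 and 1.35) and ADAMTS12 (5.59 and 0.529) were 4-fold lower and none was higher. MMP7 of the epithelium was lower in uterus too, at 6.96 and 0.376. MMP2 had 175 and 87.9, MMP11 had 8.36 and 23.0, and the plasminogen activator PLAT had 54.0 and 111. The smooth muscle sum differed in the same direction as the matrix genes, and its part in their difference was not tested.

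**Figure D5:**
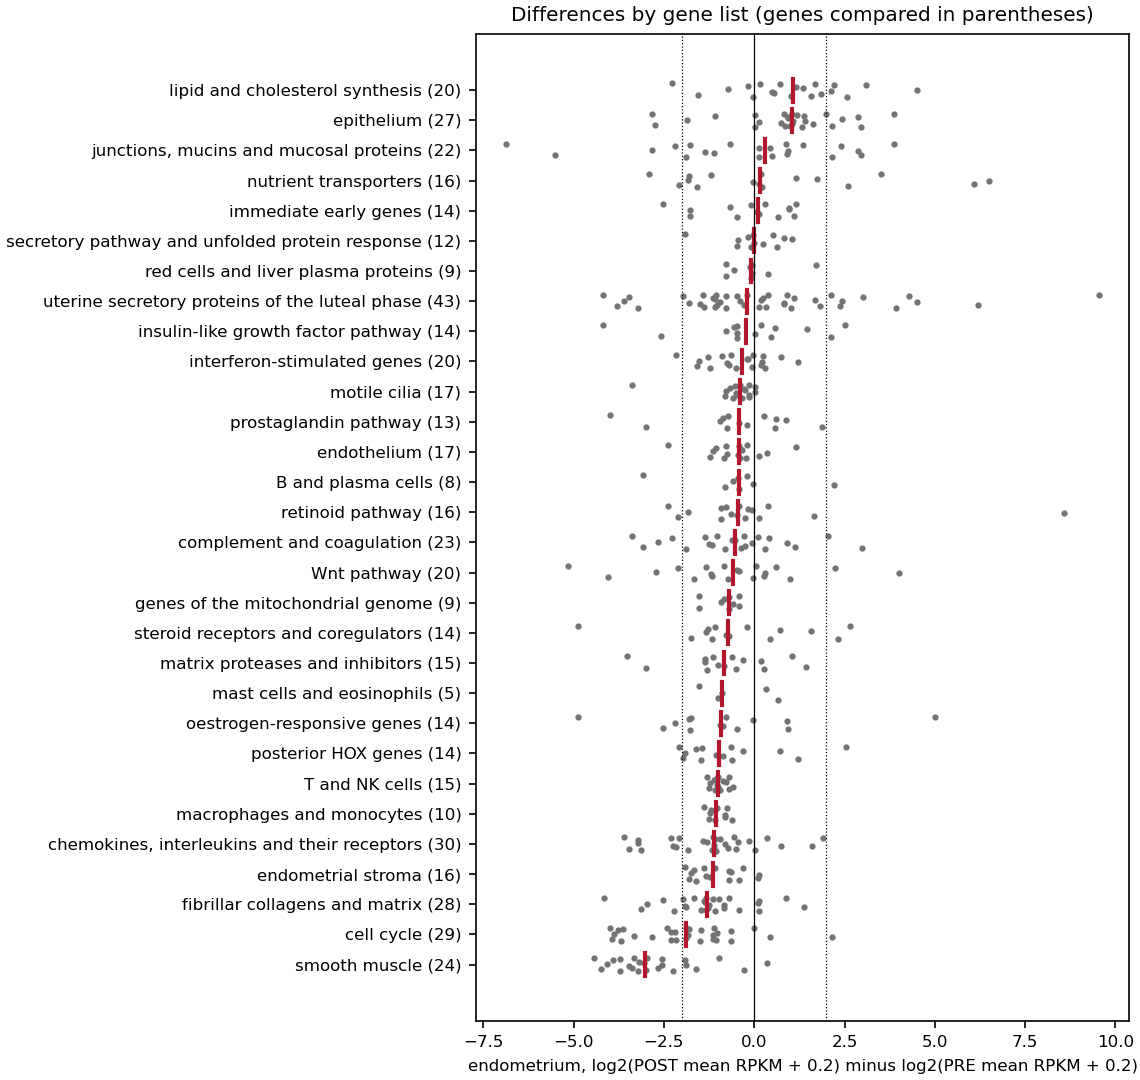
Difference between POST and PRE endometrium on the log2 scale for the members of 30 gene lists, each grey point a gene, red bars the list medians, dotted lines the 4-fold rule, with lists in the order of their medians. The smooth muscle list is lowest with a median of -3.03 and the lipid list highest with 1.08, and the secretory, Wnt, transporter and junction lists have members far out on both sides.

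Some chemokines were lower. Of 30 chemokines, interleukins and receptors, 9 were at least 4-fold lower and none was higher, with a median of -1.13 beside 0.09 in uterus. Within 2-fold in uterus were 7 of the 9, beside 87.8% of all genes compared and 48.9% of the 517 lower genes. The 9 included CCL11 (5.97 and 0.504), CCL19 (2.25 and 0.293), CXCL9 (7.01 and 1.32), CXCL10 (4.26 and 0.786) and CCL2 (3.44 and 0.653), besides CXCL12, CXCL14, CCL21 and LIF. CXCL12, which draws cells bearing CXCR4, was 127 and 233 in uterus. IL18, an epithelial cytokine, had 4.75 and 18.4, and CXCL16 had 16.6 and 27.8. The smooth muscle sum and the T cell and macrophage medians, of -1.01 and -1.06, moved in the same direction as these genes, and their part was not tested.

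In the Wnt pathway 2 of 20 genes compared were 4-fold higher and 4 lower, with a median of -0.60. The lower ones were RSPO3, RSPO1 (17.3 and 0.852), the secreted antagonist FRZB (4.21 and 0.465) and the receptor FZD2 (11.4 and 2.5). The higher ones were the antagonist DKK1 (1.03 and 19.5), which also stood at 0.525 and 50.0 in uterus, and the receptor FZD5 (8.14 and 38.8). The target AXIN2 had 7.29 and 7.18. SFRP1, an antagonist, had 68.9 and 38.6, and LGR4, a receptor of R-spondins, had 30.8 and 60.8.

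In the insulin-like growth factor pathway 14 genes were compared, with a median of -0.23. IGFBP1 and IGFBP2 (8.42 and 48.6) were 4-fold higher, and IGFBP3 and IGFBP5 (51.1 and 8.40) lower. The ligands had means of 17.3 and 12.4 for IGF1 and 91.9 and 62.4 for IGF2, and the receptor IGF1R had 14.8 and 41.5. IGFBP6 had 107 and 76.5, and IGFBP4 had 88.6 and 51.7.

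Retinoid genes other than CYP26 differed less or were lower. Of 16 compared, CYP26 was 4-fold higher and 2 were lower, the binding protein CRABP1 (37.8 and 7.0) and ALDH1A2 (8.58 and 1.84), which makes retinoic acid. The median was -0.45. RDH10 had 23.1 and 73.6, and the abundant members ALDH1A1 and RBP4 had 113 and 65.3, and 102 and 111. Both lower members were within 2-fold in uterus, as were 87.8% of all genes compared.

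Of 24 prostaglandin genes listed, 13 were matched and compared, with a median of -0.42. The receptor PTGER3 (14.2 and 0.695) and the synthase PTGES (7.37 and 0.752) were 4-fold lower and none was higher. Not among the 13 was the gene the study names FP, at 12.9 and 0.095. Whether it belongs to this pathway was not tested. PTGER3 was at 25.5 and 20.8 in uterus. PLA2G4A, the phospholipase that frees arachidonic acid, had 6.55 and 24.8. PTGIS, PTGDS and PTGES3 had 22.7 and 13.4, 103 and 62.2, and 150 and 130.

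Complement and clotting genes had 2 of 23 higher and 4 lower, with a median of -0.54. The higher ones were coagulation factor F10 (2.58 and 21.9) and tissue factor, F3 (10.1 and 42.3). The lower ones included CFI (45.5 and 4.18), C5 (5.75 and 0.735) and CFB (7.93 and 1.47). CFI and C5 were at least 4-fold lower in uterus as well. The membrane regulator CD46 had 52.8 and 69.8, and TFPI2 had 39.0 and 73.4.

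Positional genes of the tract had lower POST means in 11 of 14 cases, where the median over all genes compared was -0.03. At least 2-fold lower were 7 of the 14, beside 13.5% of all genes compared. Of these HOX and related genes, HOXD11 (18 and 4.11) was 4-fold lower and PAX2 (17.5 and 102), a regulator of the duct epithelium, 4-fold higher, with a median of -0.97. HOXA10 had 39.1 and 25.0 and HOXA11 had 42.5 and 34.3, both regulators of uterine receptivity in mice. HOXD10 had 25.8 and 6.70, HOXD9 had 21.8 and 6.98 and HOXC10 had 1.26 and 0.173, while EMX2 had 32.0 and 17.6.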

How the data were processed

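Brangus heifer endometrium was sequenced as single reads from TruSeq RNA libraries. The authors used CLC Genomics Workbench to align reads to UMD3.1, and deposited, per tissue and stage, the mean RPKM and the mean unique reads per gene. Neither gives a value per library. RPKM and reads are not in fixed ratio for some genes, PDZK1 and NUSAP1 among them, and genes of the mitochondrial genome have no unique reads but an RPKM. Which reads the RPKM counts is not given in the sources used here. No comparison column of the authors was used. The labels give 3 libraries per endometrium stage and 4 per uterus stage, so means of few reads are imprecise.

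Differences used log2(RPKM + 0.2) with an RPKM of at least 0.2 in either stage. No p-value, SD or interval can be had from means. Of 24616 genes, 13967 had a name: 11519 from the deposited names, 943 from a supplementary table of the study, and 1505 from UniProt entry names, of which 195 pairs were made by hand. Of 759 symbols in 30 lists, 529 were matched. Genes were named by these rules: up to 14 per direction with the largest difference at an RPKM of at least 5; up to 5 members per list with the largest differences and up to 3 of the most abundant; list members 4-fold apart where 8 or fewer; genes named by the study; the 5 most abundant per stage; genes nearest the limit; and genes opposite in uterus. Some genes that these rules name are not reported here. Members and lists were chosen with earlier results of these data known. The counting was tested on simulated data. Alternatives were other amounts added, other filters, CPM from the deposited mean reads, centring, a 2-fold rule and leaving out genes higher in uterus. A motif search in promoters was not run, as no promoter sequence was used here. Python 3.11.15, numpy 2.4.6 and pandas 2.3.3 were used.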

Additional observations from a re-analysis of the deposited data

How the results depend on the processing

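No paired analysis was possible because PRE and POST endometrium came from different heifers and only means were used, and for the same reason neither leaving out a heifer nor limma was run. The 505 higher and 517 lower genes stayed within 1.5-fold of those counts with 0.1 added, without a filter, at an RPKM of at least 1, with CPM, with centring, with at least 20 reads, and without genes 2-fold higher in PRE uterus. With 1 added, 228 genes were lower, and 60% of the genes apart were then higher ones against 49.4%. The 2-fold rule gave 1621 higher and 2116 lower genes. Without genes 2-fold higher in POST uterus, 197 were lower and 71.8% of the genes apart were higher ones. The cell cycle median was -1.19 with 1 added. The smooth muscle difference of -3.25 from the sum was -2.58 from the median over members. The other list medians moved by less than 1.5-fold under the alternatives run, except that the mitochondrial list has no CPM. Medians near 0 turned sign by CPM for transporters (-0.06), immediate early genes (-0.06) and blood and liver proteins (0.08). Of 521 named or listed genes, 81 moved by more than 1.5-fold with 1 added and 10 with 0.1 added, and no gene 4-fold apart changed sign. By CPM, tried for single genes after seeing the data, 37 moved by more than 1.5-fold, and BLNK, SOX17, F3, IGFBP1, SCGB1D2, CXCL9, CXCL10, ALDH1A2, C5, CPXM2, CCNA2 and NUSAP1 were under 4-fold. Centring moved every difference by 0.09. Depth limits low genes most, with 9 higher and 14 lower genes under 20 mean reads.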

Other observations

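The most abundant transcripts of PRE endometrium were those of translation, and these had lower means in POST. The elongation factor entry EF1A1 had a mean of 7193 RPKM in PRE and 3321 RPKM in POST endometrium, and the ribosomal protein entries RS8, RLA1, RS3A and RS24 came next in PRE, at 3089, 2875, 2861 and 2668 against 1041, 1159, 1297 and 877 in POST. In POST the most abundant after EF1A1 were TYB4 (2658 and 2264), TCTP (2405 and 2039), SLC11A2 and GRP. TCTP had mean unique reads of only 324 and 586, and its difference was -0.24 by RPKM but 0.58 by scaled unique reads. Of 87 ribosomal protein genes, a list made after these values were seen, 71 were at least 2-fold lower in POST endometrium and none was 2-fold higher. Over all genes compared these shares were 13.5% and 10.4%. The median of the list was -1.28, whereas it was -0.56 in uterus with 6 at least 2-fold lower. Genes of the mitochondrial genome, which have an RPKM but no mean unique reads in the files, had a median of -0.70 over 9 genes, with ATP8 at 2466 and 1300 and CYTB at 424 and 145.

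Other groups had few members 4-fold apart. Of 20 interferon-stimulated genes 1 was 4-fold lower, CXCL10, 5 were at least 2-fold lower, and the median was -0.35, with IFI6 at 122 and 150 and MX1 at 41.4 and 25.5. Of 14 immediate early genes 1 was 4-fold lower, MYC, and the median was 0.11, or -0.06 by scaled unique reads, with JUN at 63.1 and 59.6. None of 12 genes of the secretory pathway was 4-fold apart, and their median was -0.01, with HSP90B1 at 177 and 129, while SSR4 was lower by less than the rule at 419 and 111. Among genes without a name, ENSBTAG00000036102 on chromosome 7 had 0.098 in PRE and 58.4 in POST endometrium, and ENSBTAG00000026812 on chromosome 2 had 52.6 and 0.063.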
